A study of Caenorhabditis elegans with 2 samples.

Results

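The genes for spliced leader (SL) RNAs and small nuclear RNAs (snRNAs) of Caenorhabditis elegans were described for peaks of tagged ZIP-11, one of the basic leucine zipper (bZIP) transcription factors. They were all nuclear genes of the Ensembl annotation on WBcel235 with a symbol that starts with sls- or with the biotype snRNA. The rule used no measured value and found 129 of 46890 nuclear genes. Of these, 12 were SL1 genes (sls-1.1 to sls-1.12), 18 were SL2 genes (sls-2.1 to sls-2.18) and 99 were other snRNA genes, of which 10 carry smy symbols. ChIP-seq had been made from 2 samples of 1 group, labelled biological replicates 1 and 2, so no condition was compared. Both were whole L4 larvae, 52.5 hours old, grown from starved L1 larvae of strain OP761. This strain carries the transgene wgIs761 with zip-11::TY1 EGFP 3xFLAG and unc-119(+) in an unc-119(tm4063) background. The description names an anti-GFP antibody and the antibody label names zip-11. Whole animals mix all tissues, so a low signal in every cell and a high signal in a few cells cannot be told apart.

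In trans-splicing, the short leader at the start of an SL RNA is joined to the first exon of a pre-mRNA. In C. elegans SL1 is used mainly at the first gene of an operon and at single genes, and SL2 mainly at the downstream genes of operons. The snRNAs are the RNA parts of the spliceosome, which removes introns. Genes of both kinds are transcribed from short promoters with a proximal sequence element that the SNAPc complex binds, and in vertebrates a TATA box beside that element marks the snRNA promoters used by RNA polymerase III.

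The members were first checked against their label by sequence. An SL1 and an SL2 gene are shown because their leaders define these classes, with the leader of 22 bases in capitals, from the RefSeq genome of the same assembly.
sls-1.10 (chrV:17120694-17120791, reverse strand): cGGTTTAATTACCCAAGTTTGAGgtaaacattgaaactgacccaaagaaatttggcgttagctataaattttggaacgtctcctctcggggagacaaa
sls-2.1 (chrII:5844865-5844974, forward strand): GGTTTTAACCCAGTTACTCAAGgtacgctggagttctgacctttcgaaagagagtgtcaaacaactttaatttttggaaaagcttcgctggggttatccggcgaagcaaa
Of the 12 SL1 genes, 10 had this SL1 leader from their second base, as in sls-1.10, and were identical over 98 bases. The other 2, sls-1.1 and sls-1.5, were annotated with only 68 bases, the first 22 of which differed from the SL1 leader at 14 positions. The leader was searched only at the annotated 5′ end, so a leader that starts before that end would have been missed. That annotated end was also used as their TSS. Of the 18 SL2 genes, 4 had the leader of sls-2.1 exactly, 11 had it with at most 3 mismatches, and the remaining 7 differed at up to 6 positions. The annotation gives the 99 other genes the biotype snRNA without a class, which does not show that each makes a spliceosomal RNA. Among them is mir-1831, annotated with 22 bases inside sup-39, so the same summit, of signal 31.5, was counted for both. Shared summits were also counted for both genes of the pairs T27E4.12 and T27E4.22, T20D3.12 and T20D3.13, and K09B11.13 and K09B11.14. Counts of genes with a summit are therefore not counts of peaks. The 99 genes were grouped by sequence, joined where any pair was at least 80% identical. Each group was called after its member of highest signal. The W05B2.8 family held 23 genes of 93 to 108 bases, the W07G1.9 family 19 genes of 185 to 187 bases, the sup-6 family 13 genes of 156 to 170 bases and the ZK897.3 family 12 genes of 117 to 126 bases. The genes sup-6 and sup-39, known in this species as U1 snRNA genes found through suppressor mutations, were both in the sup-6 family.

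The 75 bases before the annotated transcription start site (TSS) are shown for genes on which the results turn, in the direction of the gene. Capitals mark 3 words, searched on the gene strand: CGGAACCC starting 75 to 50 bases before the TSS, TGTC starting 60 to 40 bases before it, and TATATA starting 40 to 20 bases before it. The first was the 8-mer found in more SL2 and snRNA genes than any other 8-mer in the 100 bases before the TSS, and the other two words and all 3 windows were chosen after the sequences had been seen.
sls-1.10 upstream (chrV:17120792-17120866, reverse strand): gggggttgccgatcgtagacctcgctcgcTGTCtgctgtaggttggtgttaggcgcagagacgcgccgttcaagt
sls-2.1 upstream (chrII:5844790-5844864, forward strand): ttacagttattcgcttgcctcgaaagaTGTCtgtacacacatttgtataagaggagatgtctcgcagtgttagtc
sls-2.14 upstream (chrIII:11090524-11090598, reverse strand): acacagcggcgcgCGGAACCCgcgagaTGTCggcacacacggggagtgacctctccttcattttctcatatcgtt
sls-2.17 upstream (chrIV:5317369-5317443, reverse strand): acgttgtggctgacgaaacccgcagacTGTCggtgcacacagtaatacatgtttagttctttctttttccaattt
W05B2.8 upstream (chrIII:10989604-10989678, forward strand): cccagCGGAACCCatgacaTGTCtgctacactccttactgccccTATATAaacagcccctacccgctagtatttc
F54D8.7 upstream (chrIII:5080899-5080973, reverse strand): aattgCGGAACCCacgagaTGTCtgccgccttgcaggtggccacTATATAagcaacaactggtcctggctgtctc
M163.13 upstream (chrX:14476792-14476866, forward strand): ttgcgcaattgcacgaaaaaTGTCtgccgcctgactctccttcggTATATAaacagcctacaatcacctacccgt
ZK897.3 upstream (chrIV:12786054-12786128, forward strand): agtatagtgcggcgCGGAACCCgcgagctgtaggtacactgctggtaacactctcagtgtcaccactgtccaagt
sup-6 upstream (chrII:12944968-12945042, reverse strand): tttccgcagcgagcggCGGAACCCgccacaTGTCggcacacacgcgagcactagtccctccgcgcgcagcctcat
W07G1.9 upstream (chrII:13949159-13949233, reverse strand): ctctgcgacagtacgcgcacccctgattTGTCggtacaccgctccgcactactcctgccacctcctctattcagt
TGTC at this distance was in 10 of 12 SL1, 15 of 18 SL2 and 65 of 99 snRNA genes, against 6.27% of all nuclear genes. CGGAACCC was in 5 SL2 and 26 snRNA genes and in no SL1 gene, against 0.124% of all nuclear genes. TATATA was in 18 snRNA genes, 16 of them in the W05B2.8 family, and in no SL gene, against 1.83% of all nuclear genes. A word in a sequence is a description and does not show that a factor binds it.

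A gene was taken as marked when the summit of a peak lay within 250 bp of its TSS. Peaks came from the authors' ranked list of both samples together, which holds 111547 peaks, or from their thresholded list of 364 peaks, all of which had a global irreproducible discovery rate (IDR) under 0.01. The signal value of a peak is the authors' own, and its size was compared only within a list. A summit in the long ranked list says little by itself, since 47.2% of all nuclear genes had one, and 55.5% of those that are not piRNA genes. It was found at 92 of the 129 members (71.3%, 95% Wilson interval 63.0 to 78.4), at 16 of 18 SL2 genes (88.9%, 67.2 to 96.9), at 75 of 99 other snRNA genes (75.8%, 66.5 to 83.1) and at 1 of 12 SL1 genes (8.33%, 1.49 to 35.4). For scale, it was found at 89.1% of 612 tRNA genes, 72.0% of 346 snoRNA genes and 52.5% of protein-coding genes. All intervals cover counting over genes only, and genes that share sequence or a locus are not independent.

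The thresholded list had a summit at 5 members (3.88%, 1.67 to 8.75), against 0.817% of all nuclear genes and 1.21% without piRNA genes. They were 3 of 18 SL2 genes, 2 of 99 snRNA genes and 0 of 12 SL1 genes. Among tRNA genes the share was 22.7%, among snoRNA genes 12.1% and among protein-coding genes 0.265%. All 5 members were also at a summit of the authors' conservative list, which was made from the same samples and is not separate evidence.

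**Figure D1:**
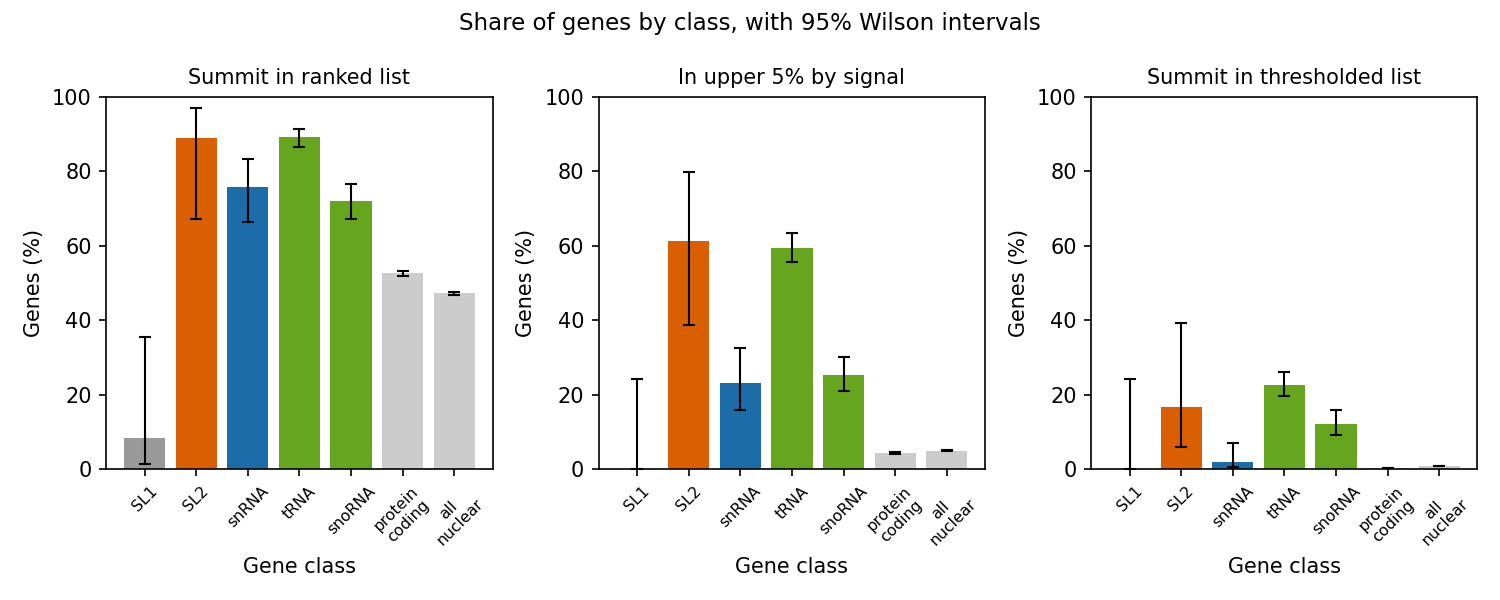
Share of genes (%) with a summit within 250 bp of the TSS in the pooled ranked list (left), with a signal value in the upper 5% of nuclear genes (middle) and with a summit in the pooled thresholded list (right), by class, bars with 95% Wilson intervals. SL2 genes stand at 88.9%, 61.1% and 16.7%, and snRNA genes at 75.8%, 23.2% and 2.02%. In the middle panel, the 11 SL2 genes become 7 with a window of 100 bp, and the 23 snRNA genes become 14 with 500 bp.

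Over the genes with a ranked summit, the median of the highest signal value within 250 bp was 44.8 for SL2 genes (8.73 to 98.9, n = 16) and 27.3 for snRNA genes (2.36 to 103.4, n = 75). It was 20.2 over all nuclear genes, 46.9 over tRNA genes and 31.3 over snoRNA genes with a summit. A measure chosen after the values had been seen, the upper 5% of all nuclear genes by this signal (above 36.4, genes without a summit counted as 0), held 11 of 18 SL2 genes (61.1%, 38.6 to 79.7), 23 of 99 snRNA genes (23.2%, 16.0 to 32.5) and 0 of 12 SL1 genes, beside 5% of all nuclear genes. With a window of 100 bp the SL2 count was 7, and the snRNA count was 14 with a window of 500 bp and 15 in the list of sample 2 alone. The SL2 count was 8 where a summit counted only for its nearest TSS. The upper 5% held 59.5% of tRNA and 25.1% of snoRNA genes. Differences in signal between these classes were not tested.

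**Figure D2:**
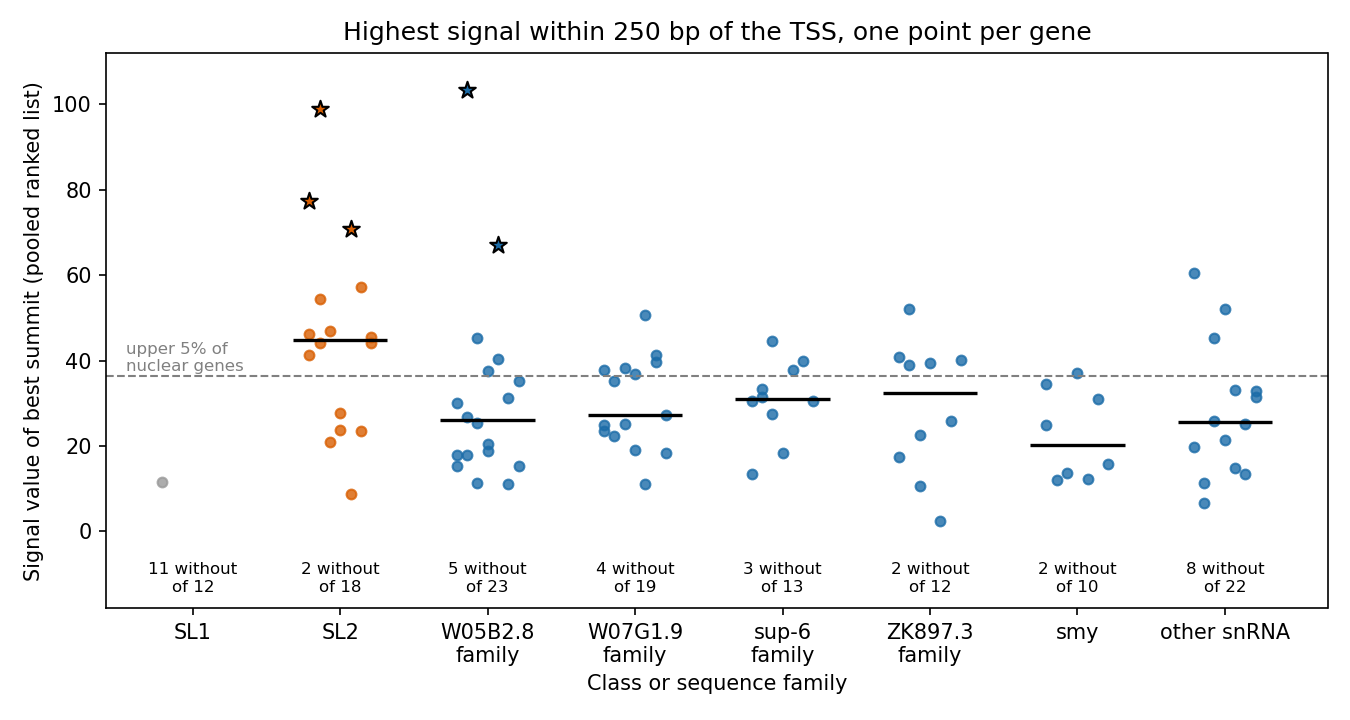
Signal value of the highest summit within 250 bp of the TSS in the pooled ranked list, one point per gene, by class and sequence family, with a line at the median of genes with a summit, stars for the 5 genes with a thresholded summit, and the number without a summit below. The dashed line at 36.4 bounds the upper 5% of nuclear genes, and 11 of 18 SL2 genes lie above it (7 with a window of 100 bp and its own bound).

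SL2 genes were on chrI, chrII, chrIII and chrIV, some of them close together, such as sls-2.14 and sls-2.15. Their values spread widely. The highest was sls-2.9 (chrI:13297877-13297985), with a pooled signal value of 98.9, and 45.8 and 51.5 in the samples' own lists. Its summit, 89 bp upstream of its TSS, was also 43 bp from the TSS of the tRNA gene M01E5.t1 and 129 bp from that of M01E5.8, annotated as a noncoding RNA. Which of these genes the peak belongs to cannot be told apart, and it was the only SL or snRNA gene whose best summit lay within 250 bp of a tRNA TSS. sls-2.1 (chrII:5844865-5844974) had 77.5, with 36.2 in sample 1 and 35.9 in sample 2, and its summit lay inside the gene, 89 bp after the TSS, with no other annotated TSS within 250 bp. sls-2.4 (chrI:4172206-4172315) had 70.8, with 33.5 and 42.5, at 123 bp after the TSS and 23 bp from the TSS of the noncoding RNA gene R12E2.18. So 1 of the 3 SL2 genes of the thresholded list, sls-2.1, had a peak that no nearer gene shared.

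Of the other SL2 genes with a ranked summit, 8 were above the bound of the upper 5% and 5 below it. sls-2.14 had a pooled signal of 57.2, with 29.8 in sample 1 and 30.7 in sample 2, and a summit 40 bp upstream of its TSS. sls-2.17 had 54.4, with 26.0 and 25.7, and a summit 164 bp after the TSS. In each sample's own list, both genes lay below sls-2.1 and sls-2.4.

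sls-2.18 had 47.0, sls-2.8 46.3, sls-2.15 45.5, sls-2.10 44.1, sls-2.7 44.1 and sls-2.16 41.4 in the pooled list, all above the bound. The summit of sls-2.16 lay 140 bp after its TSS and 31 bp from the TSS of the noncoding RNA gene B0280.22. sls-2.7 had 22.2 in sample 1 and 21.3 in sample 2. sls-2.18 had 25.7 in sample 1 and 17.2 in sample 2, sls-2.10 had 27.2 and 17.1, and sls-2.15 had 37.7 and 10.8. Each is the value of that sample's own highest summit within 250 bp, which need not be the pooled peak. Sample 1 and sample 2 summits lay at 233 and -134 bp from the TSS of sls-2.18. For sls-2.10 they lay at 37 and -77 bp, and for sls-2.15 at -11 and 158 bp. sls-2.8 had no summit in sample 1 and sls-2.16 none in sample 2. Below the bound were sls-2.3 with 27.6, sls-2.12 with 23.7, sls-2.6 with 23.5, sls-2.11 with 20.8 and sls-2.13 with 8.73. The nearly identical pair sls-2.10 and sls-2.11 was thus at 44.1 and 20.8.

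The 2 SL2 genes without a pooled summit within 250 bp were not without peaks nearby. For sls-2.2, a thresholded peak of signal 58.6 had its summit 263 bp from the TSS, just outside the window, and that same summit was 412 bp from sls-2.3 and nearest to the noncoding RNA gene C17C3.23. Sample 2 alone had a summit of 40.6 within 250 bp of sls-2.2. For sls-2.5 the samples' own lists had summits of 23.8 and 14.0 within 250 bp, and the nearest pooled summit was at 264 bp. A thresholded peak of 70.9 also lay 339 bp from sls-2.8, but was nearest to the protein-coding gene Y75B8A.23, at 144 bp.

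The SL1 genes are in a tandem array that they share with 5S ribosomal RNA genes. The 12 genes spanned chrV:17118154-17132107, 11 on the reverse strand, with 13 rRNA genes annotated over that span and 2000 bp to each side. Only sls-1.12 had a pooled ranked summit within 250 bp, of signal 11.6 and 212 bp after its TSS, and neither sample's own list had one there. In sample 2 alone, a summit of 50.4 lay within 250 bp of sls-1.9. The share of genes with a ranked summit, SL1 minus SL2, differed by -80.6 percentage points (1 of 12 against 16 of 18, Fisher's exact test over genes, two-sided, Benjamini-Hochberg adjusted p = 3.1e-05 over 2 comparisons). This test counts the 12 SL1 genes as independent, although they lie in the same array and share sequence. The 18 SL2 genes were also counted as independent, although some lie close together or are alike in sequence.

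That difference does not mean that the array was without peaks. It held 8 pooled ranked summits, 5 of them nearer to an rRNA TSS than to an SL1 TSS. The 3 of highest signal were 78.2, at 114 bp from rrn-4.12 and 287 bp upstream of sls-1.4; 68.9, at 215 bp from rrn-4.11; and 66.5, at 149 bp from rrn-4.7 and 322 bp upstream of sls-1.9. The peak of 78.2 had a −log10 global IDR of 2.62, past the threshold of 2, and was still not in the thresholded list, like 32 of the 396 ranked peaks past that threshold. Within 500 bp, 6 of 12 SL1 genes and 18 of 18 SL2 genes had a ranked summit (adjusted p = 0.00311, Fisher's exact test), beside 68.0% of all nuclear genes, and the signal at those 6 SL1 genes ran from 11.6 to 78.2.

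The share of unique sequence also differed between the classes. Of the 31-mers within 250 bp of the TSS, none occurs once in the genome for 11 of the 12 SL1 genes and 18.05% do for sls-1.12, the gene with the pooled summit. For SL2 genes the share was 54.8 to 100%, with a median of 87.9%, and for snRNA genes 0 to 100%, with a median of 79.2%. A read from a repeat has no single place, and the labels and file headers do not say how such reads were handled. The part of repeated sequence in the low SL1 count was not tested. SL1 and SL2 could not be compared among genes with at least 50% unique 31-mers, since no SL1 gene is among them. For SL genes as a whole, 17 of 30 had a ranked summit, and the difference from snRNA genes, SL minus snRNA, was -19.1 percentage points with an adjusted p of 0.0638 (Fisher's exact test). Among genes with at least 50% unique 31-mers it was 13.3 points, 16 of 18 against 65 of 86 (Fisher's exact test, p = 0.349), and neither value passed the threshold.

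**Figure D3:**
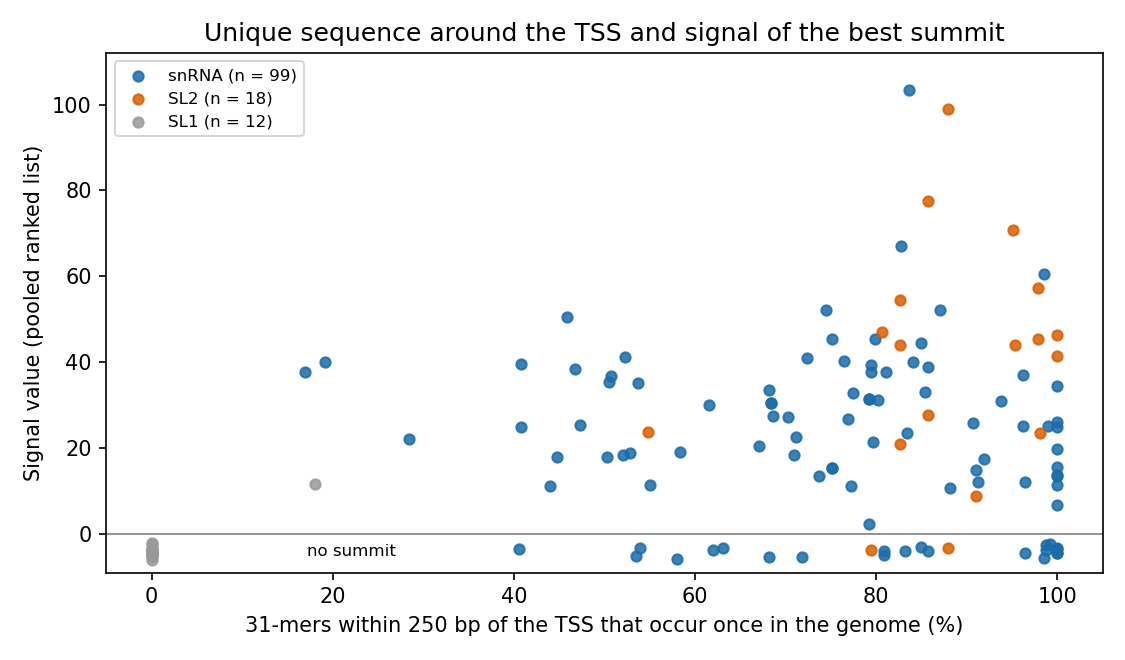
Signal value of the highest summit within 250 bp (vertical axis, pooled ranked list, genes without a summit drawn below 0 with random vertical spread) against the share (%) of 31-mers around the TSS that occur once in the genome, one point per gene. The SL1 genes sit at the left end, 11 of them at 0%, while every SL2 gene is at 54.8% or more.

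Among the snRNA genes, W05B2.8 (chrIII:10989679-10989780, forward strand) had the highest signal of all members, 103.4 in the pooled list, 52.8 in sample 1 and 67.9 in sample 2. F54D8.7 (chrIII:5080798-5080898, reverse strand) followed with 67.0, and 34.5 and 29.9 in the samples. Their pooled summits lay inside the genes, 76 bp and 5 bp after the TSS, and no other annotated TSS was within 250 bp of either. W05B2.8 and sls-2.9 were the only members with a summit in both samples' own thresholded lists, and the other 3 thresholded members had one in neither.

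Both genes belong to the family in which TATATA is common, and both were singled out by their high signal among copies of the same RNA. W05B2.8 has 13 copies with exactly the same RNA sequence. Of these, 11 had a ranked summit, with signal values from 11.2 to 40.4 and a median of 20.6. The share of 31-mers that occur once in the genome was 83.7% at W05B2.8. Among the 13 copies it ran from 40.6% at K09B11.15, without a pooled summit, to 81.1% at Y9C9A.111, with a signal of 37.6. Y17G9A.90, at 80.9%, had no pooled summit either. The part of repeated sequence in these values was not tested. F54D8.7 has 2 exact copies, Y17G9A.85 with 45.4 and T08B6.62 with 31.2. The family as a whole had a ranked summit at 18 of 23 genes, with a median of 26.0, close to the 27.3 of all snRNA genes.

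The upstream words varied inside the family as well. CGGAACCC was in 5 of the 23 genes, and 4 of these, W05B2.8, F54D8.7, Y17G9A.85 and T08B6.62, were at 103.4, 67.0, 45.4 and 31.2. The fifth, Y17G9A.90, had no ranked summit. Among members with a summit that lacked the word, signals ran from 11.2 to 40.4. The share of 31-mers that occur once in the genome was 79.8 to 83.7% in the 5 genes with the word. It ran from 43.9 to 81.1% in those with a summit and without the word. Over all 99 snRNA genes, the median signal was 32.9 in the 21 genes with a summit and the word and 25.2 in the 54 with a summit and without it. In SL2 genes the 5 with the word had 41.4 to 57.2, and the 11 with a summit and without it had 8.73 to 98.9, so the 3 highest SL2 genes lacked it. TATATA was in 18 snRNA genes, of which 16 had a ranked summit with a median of 30.6, against 26.0 for the 59 of 81 genes without it that had one. These words were partly chosen from the members' sequences, and no difference between genes with and without them was tested.

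Motifs were also counted on both strands over the 300 bases from 250 before to 50 after the TSS. TATAAA was in 38.9% of SL2 and 31.3% of snRNA genes, near the 37.4% of all nuclear genes. TGACGT, part of a site often bound by bZIP factors, was in 0 of 18 SL2 genes and 11.1% of snRNA genes, against 8.59%. CACTCGGC, found earlier at summits of these data, was in 1 SL2 gene and no snRNA gene, against 0.380%. CGGAACCC was in 27.8% of SL2 and 26.3% of snRNA genes on this wider window, against 0.384%, always on the gene strand and at a median of 61 bases before the TSS. Its absence or presence says only whether these letters are in the window.

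Below the pair, snRNA genes of other families followed. M163.13, a single gene of 80 bases on chrX:14476867-14476946 whose upstream bases hold TGTC and TATATA, had 60.4 in the pooled list, 24.2 in sample 1 and 32.9 in sample 2. ZK897.3 had 52.0, with 13.7 and 38.7, and C52E4.8 had 52.0, with 34.9 and 17.7. W07G1.9 had 50.6, with 25.1 and 23.5 in the samples. The values of the samples are from separate lists, so their sizes cannot be compared between samples. At C52E4.8 the samples' summits lay at -45 and 107 bp from the TSS, so they need not be the same peak.

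Y17G9A.85, at 45.4, was described with its family, and T11F9.15 had 45.3. sup-6 had 44.5, with 43.7 in sample 1 and 16.9 in sample 2, at summits -49 and 52 bp from its TSS. Its pooled summit lay 69 bp from the TSS of the noncoding RNA gene F58G1.11. Y47H9A.2 had 41.2, with a summit 9 bp from the TSS of the noncoding RNA gene Y47H9A.4. The sup-6 family had a summit at 10 of 13 genes with a median of 31.0, the ZK897.3 family at 10 of 12 with 32.3, the W07G1.9 family at 15 of 19 with 27.3, and the smy genes, whose RNAs are bound by Sm proteins in nematodes, at 8 of 10 with 20.3. The medians of the families differed less than the values inside each of them, which ran from 13.5 to 44.5 in the sup-6 family.

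Members near the threshold of 2 for −log10 global IDR were F54D8.7 with 2.18, sls-2.4 with 2.16 and sls-2.1 with 2.52 inside, and M163.13 with 1.83, sls-2.14 with 1.74 and ZK897.3 with 1.41 outside. sls-2.9 had 2.91 and W05B2.8 3.13.

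The best summit lay upstream of the gene at 41 members, inside it at 30 and downstream at 21, and within 100 bp of the TSS at 49. At the 5 thresholded members the samples' own summits were 42 to 83 bp apart, so the position within a short gene is not resolved. At W05B2.8 they lay 42 bp after the TSS in sample 1 and 125 bp after it in sample 2.

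**Figure D4:**
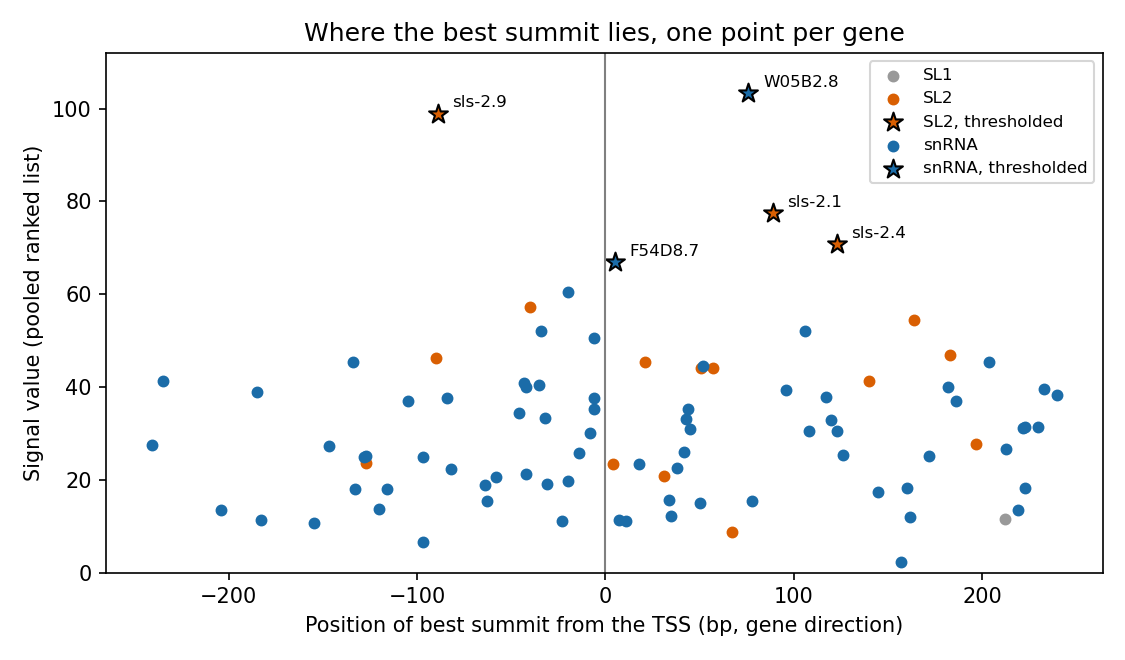
Position of the highest pooled summit in bp from the TSS, in the direction of the gene, against its signal value, one point per gene and stars for thresholded summits. Summits lie on both sides of the TSS over the whole window, and 4 of the 5 stars are at or after the TSS.

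A summit in both samples' own ranked lists was found at 42 members, 11 SL2 and 31 snRNA genes. Over these the samples' signal values ran from 5.76 to 52.8 in sample 1 and from 7.53 to 67.9 in sample 2, on scales that differ between lists. Spearman's rho between them was 0.27 and Pearson's r 0.54 across genes, which are not independent replicates; for SL2 genes rho was 0.57 and for snRNA genes 0.11. The summits of the samples lay within 50 bp of each other at 15 of the 42. The 5 thresholded members were all toward the upper end in both samples, but the list that picked them was made from these same samples.

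**Figure D5:**
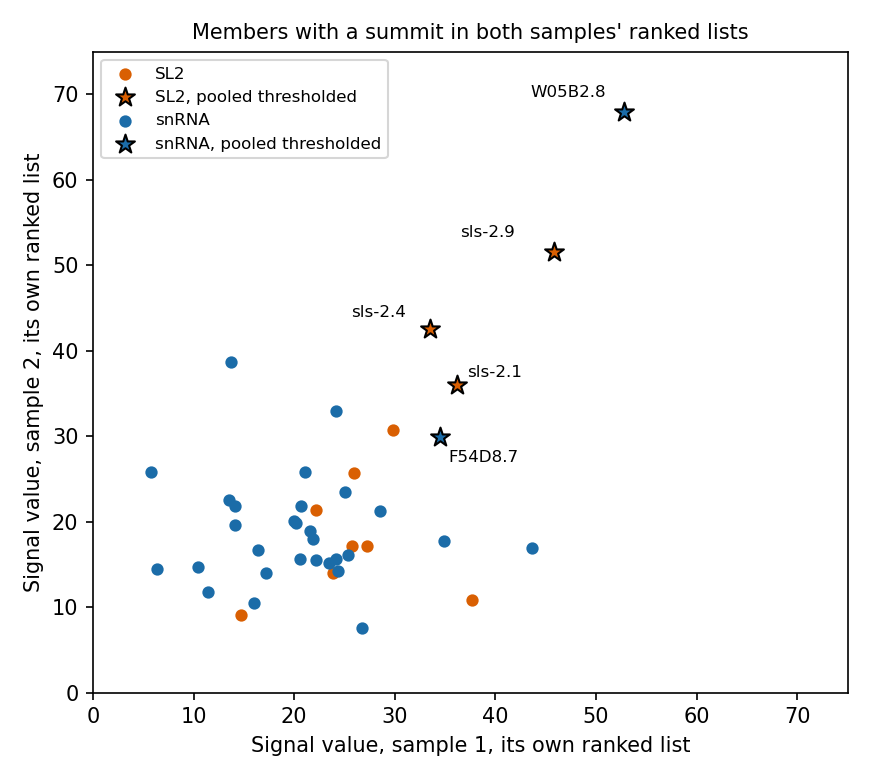
Signal value in sample 2 against sample 1, each from the sample's own ranked list, for the 42 members with a summit in both, with stars for genes in the pooled thresholded list. W05B2.8 and sls-2.9 are the highest in both samples.

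Protein-coding genes of the same pathway were read from a list of 45 genes, all found in the annotation. None had a thresholded summit within 250 bp of a TSS, and 21 had a ranked summit, with signal values from 5.35 to 54.6 and a median of 25.6. By role, a ranked summit was at 3 of 9 genes for SNAPc subunits and the TATA-binding protein, which start transcription of SL and snRNA genes, with snpc-4 at 26.1 and tbp-1 at 30.8. It was at 7 of 15 genes for Sm and LSm proteins, not all of which form rings on these RNAs, led by lsm-7 at 54.6. It was at 1 of 3 genes for proteins of the SL particle, sna-3 at 5.35. It was at 10 of 18 other genes listed for the spliceosome and its RNA-protein particles, led by snrp-200 at 50.4. Beside these 21 of 45 genes, 52.5% of all protein-coding genes and 47.2% of all nuclear genes had a ranked summit. The measures differ, since pathway genes were read at every annotated TSS, up to 3 at lsm-3, and these shares only at the gene's 5′ end.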

How the data were processed

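ChIP-seq of ZIP-11::GFP was measured in 2 samples of 1 group. The authors deposited peak lists on assembly ce11, per the file headers: 4 thresholded and 4 ranked lists, for each sample and for both together. The deposited signal is the authors' value per peak, and the deposited −log10 global IDR measures how well a peak's rank repeats. The aligner and the peak caller are not stated by the labels or headers read here. No list holds read counts, so the depth per sample is unknown and no count model was used. Genes came from Ensembl release 115, with RefSeq symbols matched by WormBase ID for all 129 members, since 44 shared a name in Ensembl. The TSS was the gene's annotated 5′ end, except that pathway genes were read at every annotated TSS. Sequence identity was computed with edlib 1.3.9.post1, Fisher's exact test with scipy 1.17.1 and Benjamini-Hochberg adjustment over 2 comparisons with statsmodels 0.14.6, threshold 0.05. Summit assignment and the test were tested on simulated data. Named were every sls- gene with a ranked summit, every thresholded member, the 10 snRNA genes of highest signal, the 3 members nearest to the IDR threshold on each side, and thresholded genes of the pathway list. Copies of W05B2.8 and F54D8.7, sls-2.2, sls-2.5, sls-1.4, sls-1.9, mir-1831, rRNA genes and pathway genes were named after their values were seen. The same holds for pairs that share a summit and for snRNA genes named for their low share of unique sequence. The members and lists were chosen with earlier results of these data known. Alternatives were windows of 100 and 500 bp, the conservative list, each sample alone, the nearest TSS, joined loci, another IDR level and unique sequence.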

Additional observations from a re-analysis of the deposited data

How the results depend on the processing

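The counts and shares kept within 1.5 times their values, or on their side of the threshold, in 53 of 67 recomputations. Thresholded summits were at 3 SL genes, but at 6 with a window of 500 bp, at 1 where a summit counted only for its nearest TSS, at 5 with a global IDR under 0.05 in the ranked list and at 1 with either sample's own list (range 1 to 1). The 2 snRNA genes became 4 with a global IDR under 0.05 and 1 in either sample's own list. Ranked summits fell from 17 to 10 SL genes and from 75 to 45 snRNA genes with a window of 100 bp. SL minus snRNA turned from -19.1 to 13.3 points among genes with at least 50% unique 31-mers. The difference between SL1 and SL2 stayed past the threshold in each setting in which it could be computed. Joining genes with TSSs within 500 bp of each other still left 12 SL1 loci, so no setting treated the array as a single locus. Further alternatives were chosen after seeing the data: in the upper 5% by signal, the 11 SL2 genes became 7 with a window of 100 bp, and the 23 snRNA genes became 14 with 500 bp and 15 to 17 in single samples. Without summits near tRNA or snoRNA genes, 2 SL genes had a thresholded summit, and 10 SL2 genes were in the upper 5%. The cause of these shifts was not tested. Since depth is unknown, a missing summit does not show that binding is absent.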

Other observations

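Of the 13 rRNA genes of the SL1 array, 5 had a pooled ranked summit within 250 bp, with signal values from 19.6 to 78.2 and a median of 66.5, and 8 had none. The peaks of 78.2 and 66.5 are those that also lie within 500 bp of sls-1.4 and sls-1.9, and no difference between the rRNA and SL1 genes was tested. The array held 0.553 pooled ranked summits per kb, against 1.11 per kb of the genome.

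One snRNA gene outside the 250 bp window, F32B5.9, had a thresholded peak at 446 bp, nearest to the protein-coding gene cpz-1, at 36 bp. With a window of 500 bp, 9 of 129 members had a thresholded summit, against 1.02% of all nuclear genes. Every member added beyond 250 bp had a summit nearest to another gene, and sls-2.2 and sls-2.3 shared the same summit.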
